A study of Mus musculus with 6 samples.

Results

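The 9 genes examined here encode proteins that move calcium into and out of mitochondria, or that sense calcium there or in the cytosol. They are the channel pore gene Mcu, its subunit gene Smdt1 and the gatekeeper genes Micu2 and Micu3. The others are the exchanger genes Letm1, Slc8b1 and Ghitm and the calcium sensor genes Efhd1 and Efhd2. All 9 were chosen by symbol from 54532 mouse genes, with their difference between the groups below already known. That difference is therefore described for each of them and not tested. The RNA came from primary cardiomyocytes, contractile heart cells, prepared from mouse pups 1 to 3 days old and profiled by RNA-seq. Adenovirus was added on day 3 of culture, and RNA was collected on day 6 after infection. The comparison asks what expression of RIT1 M90I, a variant of a RAS-related GTPase found in Noonan syndrome, does to transcript levels in these cells.

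AdGFP (3 samples) received virus encoding GFP, and its genotype is labelled Rit1 +/+. AdCre (3 samples) received virus encoding GFP and Cre recombinase, and its genotype is labelled Rit1 M90I/+. Per the methods of the study, all cultures came from mice with an engineered Rit1 locus at which Cre switches on M90I, so AdGFP cells also carried that locus before recombination. The cells of several hearts were combined, with about 1 heart per well, after plating steps that remove fast-adhering cells. Wild-type cells given Cre were not analysed here, so effects of the variant and of the recombinase cannot be told apart. Levels are in FPKM, read fragments divided by exon length and library size, and differences are AdCre minus AdGFP on the log2(FPKM + 0.1) scale, with the standard error (SE) of a limma fit. The number of reads behind the values, recovered from their step size, was 25.3 to 32.4 M (M, megareads) per sample. Total Rit1 was 7.66, 8.99 and 9.01 FPKM in AdGFP and 8.90, 9.10 and 9.58 FPKM in AdCre (difference 0.11, SE 0.12, limma adjusted p 0.84), a sum over both alleles.

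Calcium enters the mitochondrial matrix through the uniporter, a channel of the inner membrane whose pore is MCU and whose subunit EMRE, encoded by Smdt1, is needed for it to open. MICU proteins sit on the outer face of the channel, bind calcium through EF-hands, and keep it shut while cytosolic calcium is low. Calcium leaves through exchangers, among them NCLX, encoded by Slc8b1. In heart muscle this exchange ties the supply of ATP to the beat, and overload of the matrix with calcium opens the permeability transition pore.

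A feature shared by many of these proteins is the EF-hand, a helix-loop-helix in which a loop of 12 residues wraps around a calcium ion. A search of the mouse coding sequences (GENCODE M21, GRCm38) found such loops in 5 of the 9 genes, Efhd1, Efhd2, Micu2, Micu3 and Letm1. The 9 loops are shown because they are the calcium-binding stretches that set the sensors and gatekeepers apart from the channel and from the other exchangers, and because they show how near the paralogs are to each other. Each runs 5′ to 3′ on the coding strand over 36 bases, and capitals mark the codons of loop positions 1, 3, 5, 7, 9 and 12, those that face the calcium ion.
Efhd1 loop 1: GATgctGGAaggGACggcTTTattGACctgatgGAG
Efhd2 loop 1: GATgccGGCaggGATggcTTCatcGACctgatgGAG
Efhd1 loop 2: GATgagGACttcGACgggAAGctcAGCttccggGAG
Efhd2 loop 2: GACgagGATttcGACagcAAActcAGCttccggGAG
Micu2 loop 1: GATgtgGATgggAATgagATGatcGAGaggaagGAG
Micu3 loop 1: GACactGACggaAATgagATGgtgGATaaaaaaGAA
Micu2 loop 2: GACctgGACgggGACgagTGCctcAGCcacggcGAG
Micu3 loop 2: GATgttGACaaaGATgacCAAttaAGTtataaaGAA
Letm1 loop: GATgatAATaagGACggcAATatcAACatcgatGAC

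All 9 loops lie in coding exons. Those of Efhd1 are in exon 2 of 4, at chr1:87289472-87289507 and chr1:87289580-87289615 on the plus strand. Those of Efhd2 are also in exon 2 of 4, at chr4:141861913-141861948 and chr4:141861805-141861840 on the minus strand. The Micu2 loops are in exons 6 and 11 of 12, at chr14:57943597-57943632 and chr14:57918865-57918900 on the minus strand. The Micu3 loops are in exons 6 and 13 of 15, at chr8:40354341-40354376 and chr8:40380752-40380787 on the plus strand. The Letm1 loop is in exon 13 of 14, at chr5:33743651-33743686 on the minus strand. Efhd1 and Efhd2 shared 31 of 36 bases in each loop, while Micu2 and Micu3 shared 23 of 36 in loop 1 and 16 of 36 in loop 2. Over the whole protein, Efhd1 and Efhd2 had 240 residues each and were 66.5% identical over 236 aligned residues, and Micu2 (432 residues) and Micu3 (523 residues) were 45.7% identical over 414. No run of 50 bases in the transcripts of Efhd1, Efhd2, Micu2 or Micu3 occurred in a transcript of another gene. The loop of Letm1 and loop 2 of Micu3 were found with the EF-hand pattern of PROSITE, which 0.998% of 21742 protein-coding genes match. The 8 loops of the sensors and gatekeepers were found with a looser pattern, matched by 4.05% of these genes and chosen because the first missed known loops. It asks for aspartate at position 1, aspartate or asparagine at position 5, anything but proline at position 7, isoleucine, leucine or valine at position 8, and glutamate at position 12.

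Mcu encodes the pore of the uniporter. It lies on chromosome 10 from 59446984 to 59616692 (GRCm38, as are all gene positions here). Its level was 4.24, 4.70 and 5.00 FPKM in AdGFP 1 to 3 and 5.31, 4.91 and 5.47 FPKM in AdCre 1 to 3. AdCre 2 lay below AdGFP 3, so the groups overlapped, and the difference was 0.17 (SE 0.12). Each AdCre sample lay above the AdGFP sample of the same number, by 0.32, 0.06 and 0.13 on the log2 scale. In bulk cultures such as these, fewer cells of a type and less RNA per cell cannot be told apart in any of the levels given here. Smdt1 (chromosome 15, 82338959 to 82349091) was far more abundant. It stood at 66.1, 48.9 and 40.8 FPKM in AdGFP and at 63.3, 48.1 and 44.0 FPKM in AdCre, with a difference of 0.01 (SE 0.22). The samples numbered 1 were highest and those numbered 3 lowest in both groups, and the spread within a group was far larger than the gap between the groups. Of the exon bases of Smdt1, 16.6% are shared with Pheta2 on the same strand, and 9.98% of its 50-base words occur in other genes, so part of its value is uncertain, although Pheta2 itself was listed at only 1.13 ± 0.0974 FPKM in AdGFP and 1.16 ± 0.409 FPKM in AdCre (SD, n = 3 each).

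Micu2 encodes a gatekeeper of the uniporter, and it lies on chromosome 14 from 57916261 to 57999262. Its level was 29.4, 31.2 and 29.5 FPKM in AdGFP and 23.8, 23.3 and 19.5 FPKM in AdCre. Every AdCre sample was below every AdGFP sample, and the mean was 30.1 ± 0.981 FPKM against 22.2 ± 2.32 FPKM (SD, n = 3 each), a change of -26.1%. The difference was -0.44 (SE 0.12), and the AdCre samples lay below their AdGFP partners by -0.31, -0.42 and -0.59. Micu3 encodes a relative known to be abundant in the nervous system, on chromosome 8 from 40307458 to 40386308. It had the lowest mean FPKM of the 9 genes in both groups, although Efhd1 was lower in AdCre 1. Its level was 1.44, 1.24 and 1.21 FPKM in AdGFP and 1.25, 1.13 and 1.04 FPKM in AdCre, which overlapped, with a difference of -0.17 (SE 0.20). Between 177 and 247 reads stood behind a value, and exons of Fgf20 and Mir7666 on the other strand cover 4.18% of its exon bases.

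Letm1 encodes an inner membrane protein described as a potassium or calcium exchanger with protons, and lies on chromosome 5 from 33739673 to 33782817. Its level was 6.31, 5.81 and 4.78 FPKM in AdGFP and 8.22, 6.06 and 5.83 FPKM in AdCre. AdCre 1 was the only AdCre sample above all AdGFP samples, and AdCre 2 and 3 lay within their range. The difference was 0.24 (SE 0.18), and 0.08 without AdCre 1. Slc8b1, the gene of the sodium-calcium exchanger NCLX, lies on the same chromosome from 120511168 to 120534024. It stood at 3.60, 4.08 and 3.36 FPKM in AdGFP and at 5.44, 5.29 and 3.61 FPKM in AdCre, a difference of 0.35 (SE 0.19). AdCre 1 and AdCre 2 exceeded every AdGFP sample, whereas AdCre 3 lay among them. Without AdCre 3 the difference was 0.54. Ghitm encodes TMBIM5, an inner membrane protein that has been described as a calcium-proton exchanger, and lies on chromosome 14 from 37120092 to 37135272. Its level was 112, 98.0 and 83.2 FPKM in AdGFP and 103, 91.3 and 79.3 FPKM in AdCre, a difference of -0.10 (SE 0.16). The same-number differences of Ghitm were close to each other, at -0.13, -0.10 and -0.07, while its levels within a group spanned a far wider range.

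Efhd1 encodes an EF-hand protein of mitochondria, also called swiprosin-2 or mitocalcin, which has been linked to calcium-dependent mitoflash activity. It lies on chromosome 1 from 87264363 to 87310839 and is transcribed from the plus strand. Its level was 5.39, 4.08 and 4.64 FPKM in AdGFP and 1.13, 1.59 and 1.63 FPKM in AdCre. The lowest AdGFP sample was well above the highest AdCre sample, and the mean went from 4.70 ± 0.656 to 1.45 ± 0.276 FPKM (SD, n = 3 each), a change of -69.2%. The difference was -1.64 (SE 0.19), with same-number differences of -2.16, -1.31 and -1.45. The reads behind these values were 283, 220 and 243 in AdGFP and 77, 87 and 96 in AdCre. The exact Poisson interval was 192 to 251 reads for the lowest AdGFP count and 77.8 to 117 reads for the highest AdCre count. Both intervals cover counting error only, are not scaled for library size, and say nothing of the spread between cultures. Efhd1 had the largest difference of the 9 genes, and 63 of 13794 tested genes (0.457%) were as far down or further, 31 of them with a mean of at least 1 FPKM. The antisense gene Efhd1os, whose exons cover 11.95% of the exon bases of Efhd1, was listed at 0 in all 6 samples. Summed cardiomyocyte markers were also lower in every AdCre sample (2624 to 4049 FPKM) than in any AdGFP sample (4725 to 7984 FPKM). Actc1 alone made up 2686 to 4943 FPKM of these sums in AdGFP and 1186 to 2236 FPKM in AdCre. Of the 9 markers 4, Actc1 among them, were lower without overlap, where 8.02% of all tested genes were. The part of these markers in the lower Efhd1 and Micu2 was not tested.

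Efhd2 encodes swiprosin-1, a paralog of Efhd1 known as a cytosolic, actin-binding calcium sensor, and lies on chromosome 4 from 141858142 to 141874920. Despite the near-identical loops, its values did not follow those of Efhd1. The level was 181, 119.9 and 95.6 FPKM in AdGFP and 155, 104 and 92.4 FPKM in AdCre, a difference of -0.16 (SE 0.29). The groups overlapped over most of their range. The ratio of Efhd1 to Efhd2 was 0.0297, 0.0340 and 0.0486 in AdGFP against 0.00729, 0.0152 and 0.0176 in AdCre, with every AdCre value below every AdGFP value. Efhd2 was the more abundant paralog throughout.

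**Figure D1:**
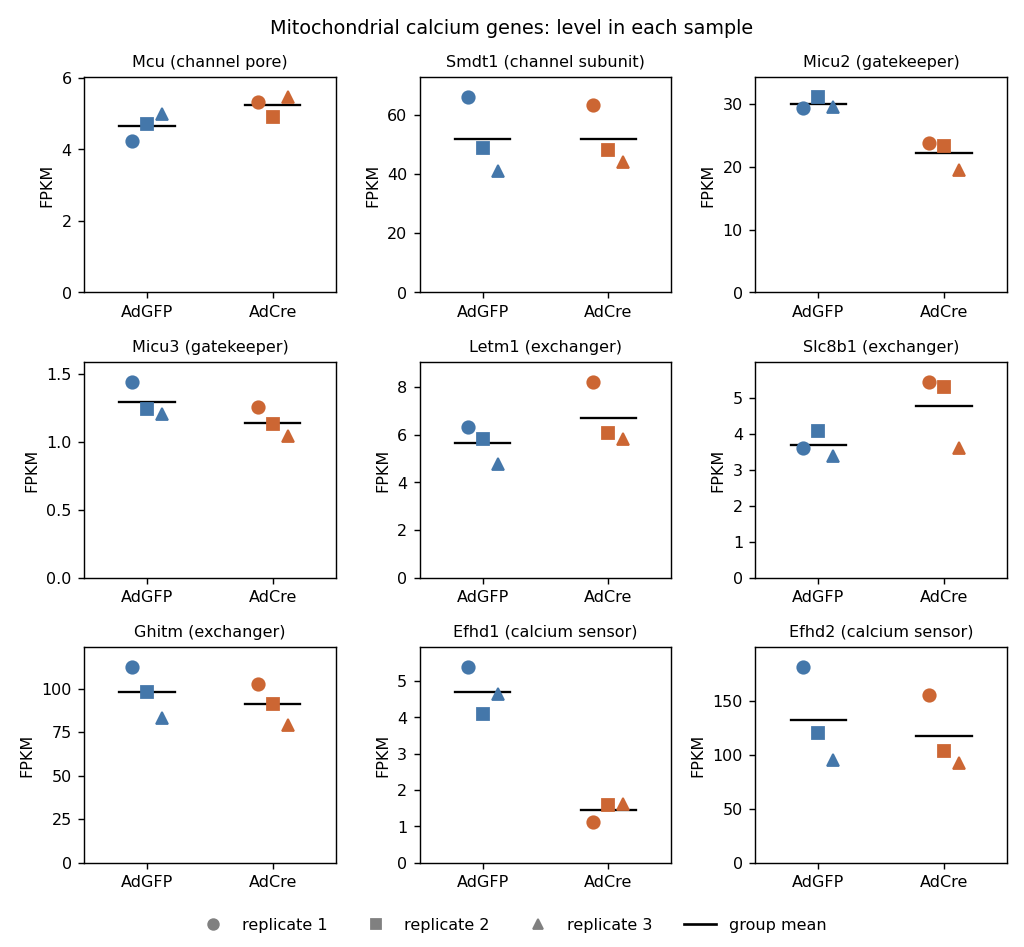
Level in FPKM (linear axes starting at 0, a scale for each gene) of the 9 genes in AdGFP (blue) and AdCre (orange); each symbol is a sample, its shape the replicate number, and the black line the group mean. The groups are apart for Efhd1 (4.08 to 5.39 against 1.13 to 1.63 FPKM) and Micu2 (29.4 to 31.2 against 19.5 to 23.8 FPKM) and overlap for the other 7.

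Across the 9 genes, 5 had a lower and 4 a higher mean in AdCre, and the median difference was -0.10, beside -0.00218 over the 13794 genes tested. Groups that did not overlap were seen for 2 of the 9, Efhd1 and Micu2, both lower, where 8.02% of all tested genes were lower and 7.36% higher without overlap. All 3 same-number differences were below 0 for 5 genes (Efhd1, Efhd2, Micu2, Micu3 and Ghitm) and above 0 for 3 (Mcu, Letm1 and Slc8b1), where 24.5% and 23.9% of all tested genes had that pattern. A difference of at least 1 in size was seen for 1 of the 9, Efhd1, where 1.9% of all tested genes were lower by as much and 3.94% differed by as much in either direction. Since the genes were picked with this contrast known, nothing is read from these counts. Efhd1, Micu2 and Micu3 were lower and Mcu, Letm1 and Slc8b1 were higher in all 23 other ways of processing the values, and only the signs of Efhd2, Ghitm and Smdt1 depended on them.

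**Figure D2:**
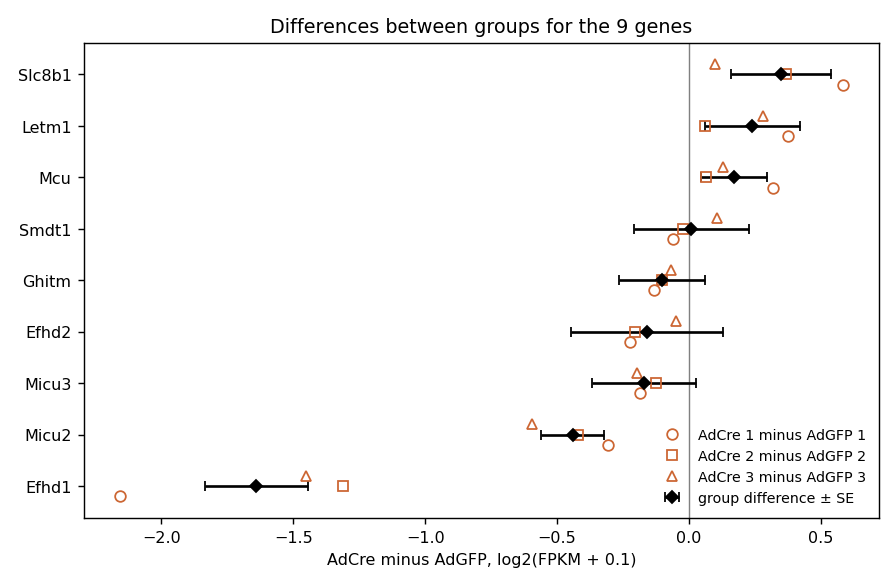
Difference AdCre minus AdGFP on the log2(FPKM + 0.1) scale (horizontal axis) for each of the 9 genes (vertical axis, sorted); black diamonds with bars are the group difference ± SE (n = 3 each) and open orange symbols the same-number differences. Efhd1 stands at -1.64 and Micu2 at -0.44, while Slc8b1, at 0.35, is at the other end.

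The order of levels per length in AdGFP was Efhd2, Ghitm, Smdt1, Micu2, Letm1, Efhd1, Mcu, Slc8b1 and Micu3. The neighbours Efhd2 and Ghitm, Letm1 and Efhd1, and Efhd1 and Mcu had overlapping ranges there. Efhd2, Ghitm, Smdt1 and Micu2 were above 97.9%, 96.9%, 93.6% and 88.1% of the tested genes, whereas Letm1 (49.7%), Efhd1 (44.6%), Mcu (44.3%) and Slc8b1 (38.5%) sat near the middle and Micu3 at 16.2%. In AdCre the order was the same except for Efhd1, which came after Slc8b1 and overlapped only with Micu3, while Mcu and Slc8b1 overlapped. The FPKM divide by the length of all annotated exons of a gene, which exceeds that of the longest coding transcript 2.42-fold for Mcu, 2.10-fold for Smdt1 and 1.83-fold for Letm1, but only 1.15-fold for Efhd1 and 1.00-fold for Efhd2. Per base of that transcript, the AdGFP mean would be 11.2 FPKM for Mcu, 10.3 for Letm1 and 5.39 for Efhd1. For Micu3 the excess was 2.77-fold over its transcript with the longest coding sequence, and per base of such transcripts the AdCre mean would be 3.16 FPKM for Micu3 and 1.66 FPKM for Efhd1. Orders of level, among them that of Mcu, Letm1 and Efhd1 in AdGFP and that of Efhd1 and Micu3 in AdCre, therefore depend on which exons are in use. The ratio of a gene between the groups does not depend on this length.

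Because the subunits work as a complex, their levels were set against that of the pore in each sample. The ratio of Micu2 to Mcu was 6.94, 6.64 and 5.91 in AdGFP and 4.48, 4.74 and 3.57 in AdCre, every AdCre sample being lower. The ratio of Micu3 to Mcu lay between 0.241 and 0.340 in AdGFP and between 0.190 and 0.236 in AdCre. For Mcub, whose product is a paralog of MCU that dampens the channel, the ratio lay between 2.27 and 2.65 in AdGFP and between 1.91 and 2.03 in AdCre. Ratios of Smdt1, Slc8b1, Letm1 and Ghitm to Mcu overlapped between the groups. For Smdt1 the ratio ranged from 8.17 to 15.6 in AdGFP alone. These ratios share the Mcu values, and they compare genes whose differences were known. Mcu had a higher mean in AdCre (difference 0.17), which lowers every ratio there. In FPKM alone, Micu3 and Mcub overlapped between the groups. How many of all tested genes would be without overlap over Mcu was not counted.

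**Figure D3:**
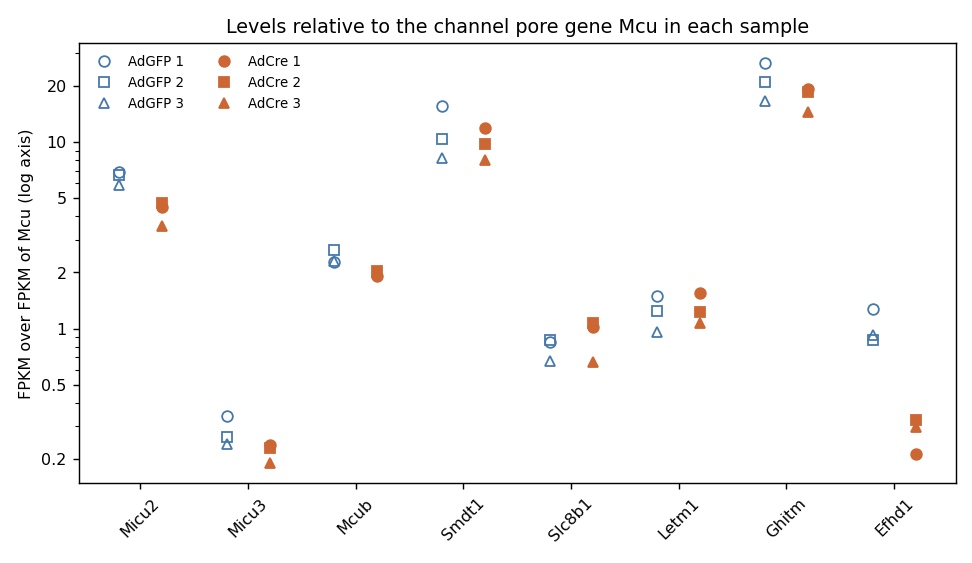
FPKM of each gene over the FPKM of Mcu in the same sample (log axis); open blue symbols are AdGFP, filled orange symbols AdCre, and the shape is the replicate number. The AdCre symbols lie below all AdGFP symbols for Micu2 (3.57 to 4.74 against 5.91 to 6.94), Micu3, Mcub and Efhd1, and overlap with them for Smdt1, Slc8b1, Letm1 and Ghitm.

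The levels were also set against those of other mitochondrial genes. A list of 15 genes of the respiratory chain, the citrate cycle and mitochondrial upkeep, such as Atp5b and Cs, had a median difference of -0.10. A lower mean in AdCre was seen for 12 of the 15, and 10 were lower in all 3 same-number differences, where 24.5% of all tested genes were. Of the 15, 0 were called by limma (adjusted p under 0.05), with the replicate number as a block, where 6.15% of all tested genes were called, or without it, where 0.00725% were. At an unadjusted p under 0.05 without the block there were 0, where 10.2% of all tested genes passed. Their summed level was 1596 to 2394 FPKM in AdGFP and 1504 to 2164 FPKM in AdCre, highest in the samples numbered 1 and lowest in those numbered 3. The summed FPKM of all 13794 tested genes had that order too (338432, 298188 and 276607 in AdGFP 1 to 3, and 304602, 282581 and 268701 in AdCre 1 to 3). It was not common to all genes. Summed fibroblast markers had the reverse order (2589, 3512 and 4644 FPKM in AdGFP 1 to 3, and 2272, 3043 and 3324 FPKM in AdCre 1 to 3). Those of endothelium and macrophages were reversed in the same way. When the mean log2 level of this list was subtracted in each sample, the SD within groups shrank from 0.20 to 0.06 for Ghitm, from 0.31 to 0.09 for Smdt1, from 0.24 to 0.11 for Letm1 and from 0.43 to 0.19 for Efhd2. It grew from 0.10 to 0.35 for Mcu, from 0.24 to 0.40 for Efhd1 and from 0.11 to 0.22 for Micu2. Relative to content, the difference was -1.56 for Efhd1, -0.36 for Micu2, 0.32 for Letm1, 0.43 for Slc8b1 and -0.02 for Ghitm. The groups of Micu2 overlapped on this scale. The subtraction moves the difference of every gene by the same amount. How many of all tested genes are without overlap on this scale was not counted, so nothing is read from overlap there.

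The wider pathway was read from 6 lists with 46 further genes, all of them tested. Of these 46 genes, 17 had a higher and 29 a lower mean in AdCre, with a median difference of -0.06, which became 0.03 after rescaling to TPM. Groups did not overlap for 2 genes higher and 4 lower in AdCre, where 7.36% and 8.02% of all tested genes had that pattern. Without pairing 0 of the 46 were called by limma at an adjusted p under 0.05, where 0.00725% of all tested genes were called. At an unadjusted p under 0.05 there were 3, where 10.2% of all tested genes passed. With the replicate number as a block 5 were called, or 10.9%, where 6.15% of all tested genes were called. Of the 5, 2 were higher and 3 lower, where 2.64% and 3.51% of all tested genes were. With the block, 3 of the 46 were called without both samples numbered 1, and 0 without those numbered 2 or those numbered 3. With the block, 3 were called after rescaling to TPM, and 0 without the filter on low values or without the intensity trend.

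The list of uniporter partners held 8 genes. The only 1 called with the block was a gene linked to calcium efflux. This was Tmem65, the gene of an inner membrane protein linked to sodium-dependent calcium efflux, at 17.4, 22.7 and 18.8 FPKM in AdGFP and 14.1, 17.2 and 14.0 FPKM in AdCre (difference -0.38, SE 0.15, limma adjusted p 0.466, with the block 0.0484). Its groups did not overlap, as for 15.4% of all tested genes. It was called in 2 of 8 settings with the block. Of the other partners, Mcub (-0.10), Mcur1 (0.01), Maip1 (-0.04) and the proteases Afg3l2 (-0.17), Spg7 (-0.07) and Yme1l1 (-0.03) were not called in either fit.

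Of 13 genes of the outer membrane and of contacts with the endoplasmic reticulum, 2 were called with the block. Itpr3, which encodes a calcium release channel of the endoplasmic reticulum, was higher, at 4.51, 4.47 and 5.17 FPKM in AdGFP and 9.78, 7.06 and 7.75 FPKM in AdCre (difference 0.77, SE 0.16, limma adjusted p 0.215, with the block 0.0326). Mfn2, which encodes a fusion protein that also tethers mitochondria to the reticulum, was lower, at 94.1, 76.9 and 57.4 FPKM in AdGFP and 55.7, 56.1 and 38.7 FPKM in AdCre (difference -0.59, SE 0.23, limma adjusted p 0.449, with the block 0.0269). Neither gene had overlapping groups, a pattern of 15.4% of all tested genes. Itpr3 and Mfn2 were each called in 4 of 8 settings with the block. The relatives Itpr1 (-0.26), Itpr2 (0.17) and Mfn1 (-0.19) were not called in either fit. The 3 Vdac genes of the outer membrane pore had differences between -0.15 and -0.04.

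The remaining lists held 2 more calls with the block. Slc25a24, a calcium-regulated carrier of ATP-magnesium and phosphate, was called among 8 genes of carriers, adaptors and an enzyme that sense calcium with EF-hands. It stood at 21.1, 13.9 and 17.0 FPKM in AdGFP and 30.3, 19.2 and 22.1 FPKM in AdCre (difference 0.45, SE 0.22, limma adjusted p 0.557, with the block 0.0331). Its groups overlapped, and each AdCre sample was above its AdGFP partner. Pdp1, the calcium-stimulated phosphatase that activates pyruvate dehydrogenase, was called among 7 matrix enzymes. Its level was 5.42, 9.40 and 6.37 FPKM in AdGFP and 3.84, 6.78 and 3.88 FPKM in AdCre (difference -0.55, SE 0.29, limma adjusted p 0.594, with the block 0.0367). Slc25a24 and Pdp1 were each called in 3 of 8 settings with the block. Of the 7 matrix enzymes 6 had a lower mean, and that list had the lowest median of the 6, at -0.19. The 5 genes of the permeability transition (median 0.03) and the 5 relatives of Letm1 and Ghitm (median 0.02) held 0 calls in either fit, and 0 with an unadjusted p under 0.05 without the block.

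**Figure D4:**
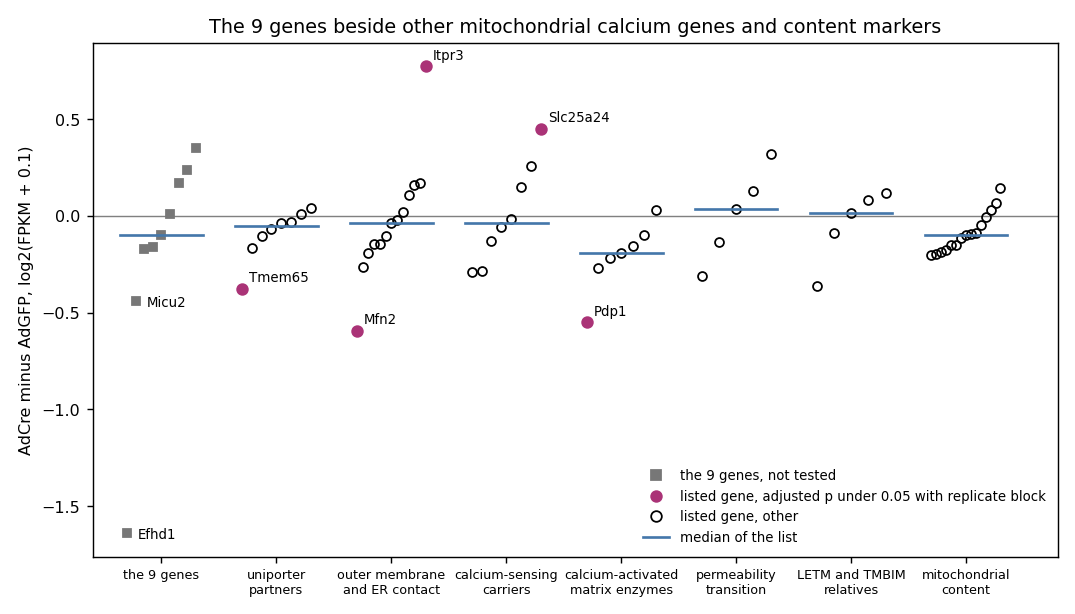
Difference AdCre minus AdGFP on the log2(FPKM + 0.1) scale for the 9 genes (grey squares), the 46 further genes in 6 lists and the 15 content genes (circles, 1 for each gene), with the list median as a blue line; filled circles had an adjusted p under 0.05 in limma with the replicate block. Efhd1, at -1.64, lies far below every other gene shown, and the filled circles are Tmem65, Mfn2, Itpr3, Slc25a24 and Pdp1.

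The cultures held several cell types. The calls of markers given next are from the limma fit with the block, where 3.51% of all tested genes were called lower and 2.64% higher. Without the block 0 markers of any of these lists were called, and at an unadjusted p under 0.05 there were 5 of cardiomyocytes, 3 of endothelium and 0 of the other lists. Markers of cardiomyocytes (9 genes, such as Myh6 and Tnnt2) summed to 4725 to 7984 FPKM in AdGFP and 2624 to 4049 FPKM in AdCre. All 9 had a lower mean in AdCre (median difference -0.82), and 5 were called with the block, all lower. Of 8 fibroblast markers 7 had a lower mean (median -0.40, 3 called lower), with sums of 2589 to 4644 against 2272 to 3324 FPKM. All 7 endothelial markers had a higher mean (median 0.42, 4 called higher), with sums of 88.3 to 130.0 against 129.9 to 185 FPKM. The 6 tested macrophage markers also had higher means (median 0.51, 2 called higher), with sums over all 7 listed of 49.0 to 267 against 87.2 to 335 FPKM. Mural markers (6 genes, 0 called, median 0.13) summed to 144 to 191 against 157 to 168 FPKM, and epicardial or mesothelial markers (5 genes, 1 called lower, median -0.66) to 97.0 to 211 against 84.0 to 116 FPKM. No gene of these lists was at 0 in any sample, so the labelled cardiomyocytes carried their defining markers together with those of other cell types. The part of these markers in the differences of the called pathway genes was not tested either.

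The genes whose log2 levels were most like those of Efhd1 over the 6 samples were Sema3c (Pearson r 0.996), Ldah (0.992), Tbx18 (0.990), Prkd1 (0.989) and Brpf3 (0.985), among 12428 protein-coding genes tested. Sema3c, the gene of a secreted semaphorin, was close in size as well as pattern, at 16.9, 13.3 and 16.1 FPKM in AdGFP and 4.10, 5.10 and 6.05 FPKM in AdCre, a difference of -1.59. Tbx18, the gene of a T-box factor of the epicardium and sinus horn, had the same order of groups over a far smaller span, at 18.3 to 19.3 FPKM in AdGFP and 12.8 to 14.7 FPKM in AdCre. An r of at least 0.95 was reached by 48 genes. These r rest largely on the gap between the groups. For deviations from the group means, the 5 most like genes (r from 0.975 to 0.986, led by Rlf and Mga) were all different ones, and 14 genes reached 0.95.

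The nearest tested protein-coding genes on either side of Efhd1 did not share its difference. Eif4e2, which encodes a cap-binding protein, ends 23875 bases before Efhd1 and stood at 14.5, 11.5 and 10.2 FPKM in AdGFP and 13.9, 12.03 and 11.8 FPKM in AdCre (difference 0.07, SE 0.16, limma adjusted p 0.939). Gigyf2, whose product binds the EIF4E2 protein, starts 16159 bases after Efhd1 and stood at 5.79, 6.08 and 5.96 FPKM in AdGFP and 5.26, 5.22 and 5.94 FPKM in AdCre (difference -0.12, SE 0.12, limma adjusted p 0.810).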

How the data were processed

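Messenger RNA of 6 cultures was captured on poly-T beads, fragmented and reverse transcribed with random hexamers. The authors deposited FPKM for 54532 mouse gene IDs, 1 column per sample, without pooling replicates. The submitters' processing notes name fastp, STAR 2.5, HTSeq 0.6.1 and build mm10. The annotation and use of strand are not given in the sources used here. Symbols, positions and sequences came from GENCODE M21 (GRCm38), which holds 54495 of the IDs. FPKM times exon length gave whole reads (within 0.05) for 98.3 to 98.6% of values under 50 reads, and the denominators behind the FPKM (24.6 to 32.0 M, megareads) differ from the recovered totals, for a reason not given in the sources used here.

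Values were tested as log2(FPKM + 0.1) with limma 3.58.1 (R 4.3.3; lmFit, eBayes with trend) in 13794 genes averaging 0.5 FPKM or more, with Benjamini-Hochberg adjustment and calls at an adjusted p under 0.05. This scale understates the change of low genes. The 9 genes passed the filter on low values. An exact permutation test of 3 samples against 3 cannot go below 0.1. The labels call the samples biological replicates numbered 1 to 3 in both groups without giving the meaning of the number. Residuals around the group means correlated at 0.568, 0.268 and 0.506 between same-numbered samples and at -0.497 to 0.036 otherwise, so same-numbered samples were treated as pairs, from the values alone. No library repeated another within counting error (chi-square per degree of freedom 35.8 to 114 within groups).

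The members and all lists were chosen with earlier results of these data known. Besides the members, genes were named when called in a list (at most 5 per list, by p), when among the 5 most correlated with Efhd1, when its nearest tested neighbours, or as defining markers. The values of 1 listed gene are not reported here, and it stays in the counts and medians of its list. Further listed genes were named after their values were seen. Alternatives were other pseudocounts, filters and scalings, eBayes without trend, the replicate block and leaving out samples. Values scaled to the recovered totals and voom on the recovered reads were added after the data were seen. The test was also run on simulated data, and that outcome is not reported here. Python 3.11.15, numpy 2.4.6, pandas 2.3.3 and scipy 1.17.1 were used.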

Additional observations from a re-analysis of the deposited data

How the results depend on the processing

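Over 23 alternatives Efhd1 was lower in AdCre in every case, by log2 differences between -1.80 and -1.22. The extreme value of -1.22 came with a pseudocount of 1, and with the replicate block without pair 1 it was -1.38. Leaving out each sample in turn gave -1.74 to -1.48. Micu2 stayed between -0.51 and -0.35. The count of the 9 genes with a lower mean, 5 in the report, ran from 3 to 6 when a sample was left out, and was 3 without AdGFP replicate 1, where Efhd2 (0.09) and Ghitm (0.00) turned higher.

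The count of all genes called, 1 in the report, was 3 with a pseudocount of 1, 4 without the trend, 0 without a filter on low values and 0 with voom on recovered reads, and 0 to 2 with a sample left out. With the replicate block it was 848, and with the block also 875 after rescaling to TPM, 1739 with voom, 17 without the filter and 0 without the trend. It was 811 without pair 1, 152 without pair 2 and 1 without pair 3. Of the blocked calls 364 of 848 were higher as deposited and 538 of 875 after rescaling to TPM, which moved the median of all genes to 0.09. Among the 46 further genes, 0 were called without the block, also with each sample left out in turn. With the block 5 were called, 5 with voom, 3 after rescaling to TPM, 3 without pair 1, and 0 without pair 2, without pair 3, without the filter and without the trend. Their median ran from -0.14 to 0.01 with a sample left out and was 0.03 after rescaling to TPM, and its sign turned in 4 of 23 alternatives. The cause of these changes was not tested.

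Depth limits Efhd1 and Micu3 most, with 77 to 283 reads behind a value.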
